A study of Mus musculus with 18 samples.

Results

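Transcripts of the enzymes that break down tryptophan and tyrosine were examined in liver RNA-sequencing of 18 mice. The genes were taken by their symbols, as 5 enzymes of the tryptophan (kynurenine) route, Tdo2, Afmid, Kmo, Kynu and Haao, and 4 of the tyrosine route, Tat, Hpd, Hgd and Fah. They are 9 of 52230 annotated genes, and all 9 were among the 10938 genes that passed the filter of at least 10 counts in at least 4 libraries. The mice belonged to the GCKR-P446L-EMI-B6N line, in which the edited codon of Gckr changes proline to leucine in GKRP, the regulatory protein that binds glucokinase in the hepatocyte nucleus. Mice homozygous for the proline form (PP, the wild-type) were compared with mice homozygous for the leucine form (LL), all on a standard chow diet. There were 4 males and 5 females of PP and as many of LL genotype. No other allele or agent is given for any group. The labels give ages of 9 to 14 weeks in male PP and female PP, 13 to 14 weeks in male LL and 11 to 14 weeks in female LL mice, whereas the series text gives 14 weeks for all. The edit is carried by every cell, and whole liver was sequenced with 1 library per mouse.

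Hepatocytes clear most dietary tryptophan through the kynurenine route, in which the indole ring is opened by tryptophan dioxygenase and the products are carried on towards quinolinate and NAD or to full oxidation. Tyrosine, taken in or made from phenylalanine, is transaminated and then degraded in a short series of oxygenase and hydrolase steps to fumarate, which enters the citric acid cycle, and acetoacetate. Both routes begin with enzymes, Tdo2 and Tat, that are textbook targets of glucocorticoids, and both are hallmarks of the differentiated hepatocyte.

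Total estimated counts per library were between 3794671 and 6613905. Fragment length, read from the effective lengths in the files, was 396 to 630 bases in male PP, 202.9 to 582 in male LL, 369 to 631 in female PP and 247 to 377 bases in female LL livers. The share of counts on mitochondrial transcripts was 8.52 to 17.9%, and male LL 1 had the highest. The labelled tissue was checked with marker lists. All 6 hepatocyte markers were detected in every group, whereas 4 of the 5 kidney markers were at 0 in all libraries and the other, Kap, reached an estimated count of 1. Every library held at least 233 counts of each of the 9 enzymes, the lowest being for Afmid.

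The promoters of Kmo, Tdo2 and Haao are shown because these were the 3 enzymes with a transcript difference between the sexes that passed the test described further on. Each is the 250 bases before the start of the leading transcript, from the GRCm39 genome with the GENCODE M39 annotation, written 5′ to 3′ on the strand of the gene. Capitals mark the letters TGTTCT, the core letters on either arm of the glucocorticoid response element. The Kmo window is chr1:175459284-175459533 on the plus strand, the Tdo2 window is chr3:81883510-81883759 on the minus strand and the Haao window is chr17:84154305-84154554 on the minus strand.
Kmo: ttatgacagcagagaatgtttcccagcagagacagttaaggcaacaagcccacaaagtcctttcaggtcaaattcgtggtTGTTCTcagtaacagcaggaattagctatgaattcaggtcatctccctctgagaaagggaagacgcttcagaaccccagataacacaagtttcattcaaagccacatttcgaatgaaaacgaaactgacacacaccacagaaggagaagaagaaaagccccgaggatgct
Tdo2: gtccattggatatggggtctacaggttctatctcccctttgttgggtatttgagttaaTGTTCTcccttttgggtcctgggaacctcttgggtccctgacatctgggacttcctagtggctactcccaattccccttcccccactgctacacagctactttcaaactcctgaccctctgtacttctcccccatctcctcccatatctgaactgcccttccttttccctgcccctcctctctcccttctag
Haao: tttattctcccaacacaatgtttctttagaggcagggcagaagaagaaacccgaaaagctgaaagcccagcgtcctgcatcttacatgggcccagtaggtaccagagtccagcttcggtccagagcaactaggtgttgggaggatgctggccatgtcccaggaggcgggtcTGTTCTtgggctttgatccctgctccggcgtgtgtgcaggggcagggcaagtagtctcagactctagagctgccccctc
The match began 170 bases before the start in Kmo, 192 in Tdo2 and 79 in Haao. On either strand TGTTCT was present in 13.1% of the 10937 promoters of tested genes searched over the same length, and in none of the other 6 enzymes. The STAT palindrome TTCNNNGAA was in 6.72% of promoters and in 0 of the 9. CCAAT was in 35.8% of promoters and in Tdo2, Kynu, Tat and Hgd, TTNNGCAA (a C/EBP pattern) was in 8.83% and in Kynu and Hgd, TATAAA was in 8.10% and in Hgd, and the GC box GGGCGG was in 44.9% and in Afmid, Hpd and Fah. These matches describe letters within a short window, and no binding was measured. Several patterns were searched besides TGTTCT, and whether any goes with the sex differences was not tested.

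Per length of transcript Hpd was the most abundant of the 9, and the order of the others depended on which transcripts were counted. On the TPM scale of the leading transcript, which allows levels to be compared between genes, Hpd, the dioxygenase that turns 4-hydroxyphenylpyruvate into homogentisate, was the highest of the 9 in 18 of 18 mice, with a median of 832 (252 to 1668). Fah, the hydrolase of the last step, followed with a median of 299 (158 to 445) and was above Hgd in 17 of 18 mice. Hgd, the homogentisate dioxygenase, Tat, the aminotransferase of the first step, and Tdo2, the dioxygenase of the first step of the kynurenine route, had medians of 228, 215 and 173. Their order was not stable, since Hgd was above Tat in only 6 of 18 mice and Tat was above Tdo2 in 12 of 18. Haao, which opens the ring of 3-hydroxyanthranilate, had a median of 134, and Kmo, the hydroxylase of kynurenine, had 72.3 and lay above Afmid in every mouse. Afmid, the formamidase that releases kynurenine, and Kynu, the kynureninase, were the lowest at 28.4 and 24.2, with Afmid above Kynu in 8 of 18 mice. With the TPM of all transcripts of a gene summed, Hpd again had the highest mean in each group (1508 in male PP, 1999 in male LL, 3169 in female PP and 3056 in female LL livers). On that scale Tdo2 had means of 620 in male PP, 700 in male LL, 644 in female PP and 512 in female LL livers, above those of Tat and Fah in all 4 groups and of Hgd in 3. Haao, at 502 in female PP and 466 in female LL livers, was above Fah (322 and 358) and Tat (477 and 322) there.

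Some of these genes can share reads with a neighbour, and whether the counting used strand is not given in the sources used here. Of the 31-base words of the Tdo2 transcripts, 48.4% also occurred in those of Ctso, whose gene overlaps Tdo2 on the opposite strand and carried a mean of 208 estimated counts. Of the Afmid words 45.7% were shared, with Gm20708 more than with any other gene, a gene on the same strand that spans nearly all of Afmid (24.4 counts). Of the Kmo words 4.35% were shared with other genes, the most with Fh1, which it overlaps on the opposite strand (1286 counts). The share was 10.5% for Haao and between 0 and 2.69% for the other 5.

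The clearest difference between groups was a lower normalized count of Kmo in females. Normalized counts of Kmo (ENSMUSG00000039783, GRCm39 chromosome 1, 175447947 to 175489683) were 1643, 1907, 1905 and 1707 in the 4 male PP mice and 1122, 1190.1, 1276, 1097 and 1374 in the 5 female PP mice. They were 1817, 1895, 1678 and 1421 in male LL and 1138, 1162, 1359, 1096 and 991 in female LL mice. All females lay below all males of their genotype, and the highest female value of all, from female PP 5, was below the lowest male value. In PP mice the log2 fold change of females against males was -0.56 ± 0.11 (SE), a fold of 0.677 (95% interval 0.581 to 0.788), with a DESeq2 adjusted P of 2.6e-05. In LL mice it was -0.57 ± 0.11, a fold of 0.676 (0.580 to 0.787), with an adjusted P of 4.1e-05. These contrasts share no library, and Kmo was the 1 enzyme called in both with the same sign, as were 2.75% of all genes. A gene was called when its adjusted P was below 0.05 and its fold at least 1.3 or at most 0.7.

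Kmo was also the 1 enzyme of 9 called between the sexes in PP mice, where 6.45% of all genes tested were called and 2.77% were called lower. It was likewise the 1 enzyme whose male and female values did not overlap there, against 9.74% of all genes. In edgeR's quasi-likelihood test the adjusted P of Kmo was 0.0065 in PP and 0.0087 in LL mice. With fragment length as a term of the fit the difference was called in both genotypes (Kmo alone of the 9 in each). In LL mice it missed the fold limit without male LL 2, the library of the shortest fragments, at a log2 fold change of -0.51 with an adjusted P of 0.0016.

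**Figure D1:**
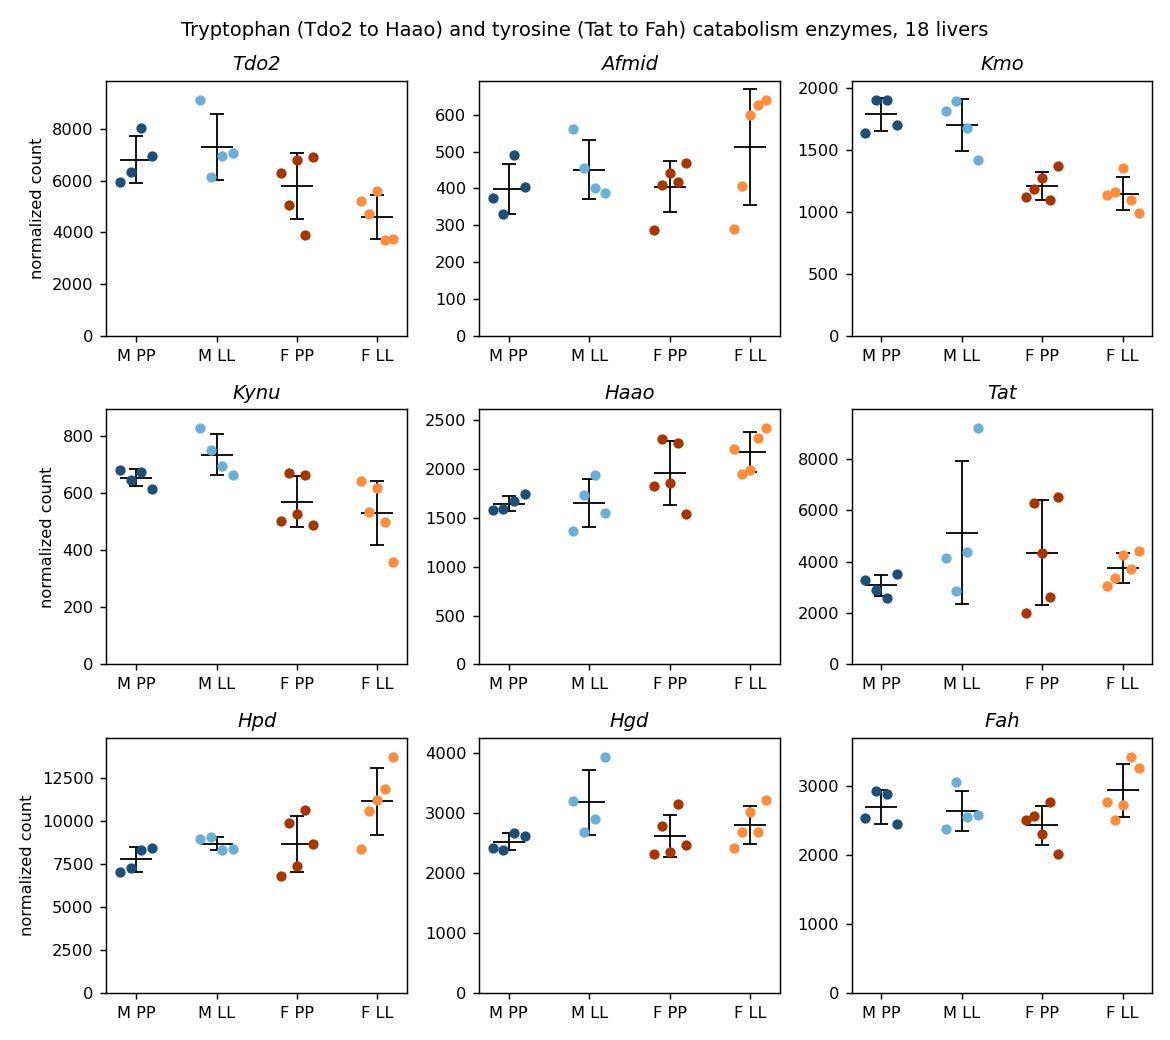
Normalized counts of the 9 enzymes in every mouse (y axis, from 0), by group on the x axis (M male, F female). Points are mice, horizontal marks are group means and bars are SD. For Kmo the 10 females lie at 991 to 1374 and the 8 males at 1421 to 1907.

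The Kmo estimate changed with the way transcript length entered the fit. Kmo-201, the full-length coding transcript of 2695 bases in 15 exons, held 94.1% of Kmo counts, and counted alone it gave -0.59 in PP and -0.62 in LL mice, both called. Counting the leading transcript alone was chosen after seeing the data, here and for the other enzymes. As Kmo-201 held nearly all counts of the gene, its result could differ little from that of the gene sum. Kmo-203 is 374 bases long with an effective length of only 93.2 to 222 bases, so that it held 0 to 5.50% of the counts of Kmo in a mouse but 0 to 59.8% of its TPM. Kmo-203 was at 0 in all 4 male LL mice, and its median share of Kmo TPM in PP mice was 29.3% for females and 6.95% for males. In female LL mice its median share was also 0, and the highest, 59.8%, came from female LL 2. When average transcript length was an offset, the log2 fold change of Kmo was -0.07 in PP and -0.18 in LL mice, and neither was called. On the log2(TPM + 1) scale it was 0.67 in PP and 0.06 in LL mice, the opposite direction, and neither was called. That scale moved the median of all genes by 0.50 in PP and 0.20 in LL mice. The TPM of Kmo-201 alone was not lower in female PP mice, at 74.9 ± 5.68 (SD) against 61.8 ± 12.5 in male PP mice. It was 68.4 ± 7.72 in female LL and 84.3 ± 25.7 in male LL mice. When the offset was taken from transcripts of at least 1000 bases the difference was -0.54 in PP and -0.56 in LL mice and was called in both, a setting chosen after seeing the data.

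**Figure D2:**
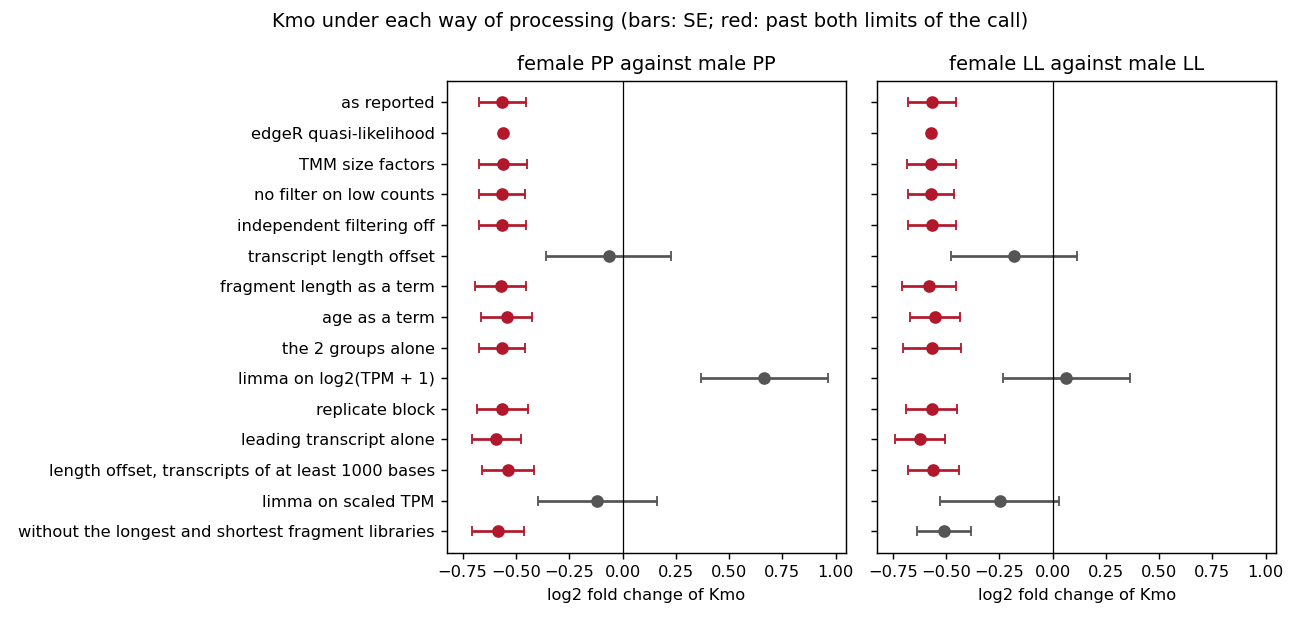
Log2 fold change of Kmo in females against males (x axis) under each way of processing (y axis), in PP mice on the left and LL mice on the right. Points are estimates and bars are SE (none is given by edgeR), and red marks estimates past both limits of the call. The estimates lie near -0.56 except where the length of every transcript enters, as an offset or through TPM.

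In LL mice, 3 of the 9 enzymes were called between the sexes, against 6.12% of all genes. Kmo and Tdo2 were lower in females, against 2.79% of all genes, and Haao was higher, against 3.33%. For 4 of the 9, Tdo2, Kmo, Kynu and Haao, the male and female values did not overlap, which was so for 8.16% of all genes.

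Tdo2 (ENSMUSG00000028011, chromosome 3, 81864248 to 81883509) had normalized counts of 9121, 6132, 6938 and 7064 in male LL mice and 5229, 4731, 5593, 3696 and 3743 in female LL mice. The highest male value came from male LL 1, the library with the highest mitochondrial share, and female LL 4 and 5 were the lowest. The log2 fold change was -0.67 ± 0.18 (SE), a fold of 0.629 (95% interval 0.493 to 0.801), with a DESeq2 adjusted P of 0.0059 and an edgeR adjusted P of 0.0402. Without male LL 1 it was -0.55 with an adjusted P of 0.0617, and with fragment length as a term -0.52 with an adjusted P of 0.064. In PP mice the values overlapped, at 5931, 6327, 8022 and 6970.4 in males and 6297, 5077, 6792, 3912 and 6918 in females, and the log2 fold change was -0.23 ± 0.18 with an adjusted P of 0.577. The difference between the genotypes in this sex contrast was -0.44 ± 0.25 with an adjusted P of 0.572, so Tdo2 was not shown to differ by sex more in LL than in PP mice.

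Haao (ENSMUSG00000000673, chromosome 17, 84138583 to 84155392) had normalized counts of 1369, 1736, 1944 and 1555 in male LL and 2207, 1950.2, 1989, 2319.9 and 2417 in female LL mice. The lowest female value, from female LL 2, was just above the highest male value, from male LL 3. The log2 fold change was 0.40 ± 0.13, a fold of 1.32 (1.10 to 1.57), with an adjusted P of 0.0355, close to both limits of the call. It was not called by edgeR (adjusted P 0.0885), with fragment length as a term (0.157), with age as a term (0.0535), in a fit of the 2 groups alone (0.0645), with the offset from transcripts of at least 1000 bases (0.128) or with that from all transcripts (0.917), or without any of male LL 1, 2 and 4 and female LL 1, 4 and 5. Counted by its leading transcript alone, a setting chosen after seeing the data, it was 0.91, with an adjusted P of 0.0175, and was called. In PP mice the counts were 1579, 1593, 1674 and 1746 in males and 1831, 2306, 1859, 2271 and 1537 in females, and the log2 fold change was 0.25 ± 0.13 (adjusted P 0.298). Female PP 5 lay below all male PP mice and the other 4 above them. The interaction of genotype and sex was 0.15 ± 0.18 with an adjusted P of 0.854.

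Kynu (ENSMUSG00000026866, chromosome 2, 43445309 to 43572734) passed the P limit in LL mice but not the fold limit. Its normalized counts were 826, 749, 695 and 661 in male LL and 643, 532, 619, 497 and 358 in female LL mice, every female being below every male. On the log2 scale this was -0.47 ± 0.15, a fold of 0.724 (0.588 to 0.891), with a DESeq2 adjusted P of 0.0375 and an edgeR adjusted P of 0.079. It was called without female LL 1, at -0.55, or without female LL 3, at -0.53. Of 32 alternatives 4 gave a call, namely these fits and those with either transcript length offset. Counted by its leading transcript alone Kynu was -0.24, with a DESeq2 adjusted P of 0.541. The DESeq2 adjusted P was 0.121 in a fit of the 2 groups alone and 0.0655 with fragment length as a term. In PP mice the counts were 680.0, 645, 673 and 615 in males and 503, 669, 526, 662 and 487 in females, which overlapped. The estimate there was -0.20 ± 0.15 (adjusted P 0.579). The interaction of genotype and sex was -0.27 ± 0.22 with an adjusted P of 0.746.

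The enzyme between Tdo2 and Kmo in the route showed no such pattern. Afmid (ENSMUSG00000017718, chromosome 11, 117716712 to 117730734) had 329 to 490 normalized counts in male PP and 288 to 469 in female PP mice. The log2 fold change by sex was 0.02 ± 0.21 in PP mice and 0.18 ± 0.21 in LL mice, with folds of 1.01 (0.759 to 1.36) and 1.14 (0.850 to 1.52). Neither passed the test (adjusted P of 0.984 and 0.693).

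None of the 4 tyrosine enzymes was called between the sexes, against 6.45% of all genes in PP and 6.12% in LL mice. Hpd was nearest to a call in LL mice, with 8332 to 9089.9 normalized counts in males and 8352 to 13731 in females. Its log2 fold change was 0.36 ± 0.15, a fold of 1.28 (1.05 to 1.56), with an adjusted P of 0.121, and it was called without female LL 1 at 0.44 with an adjusted P of 0.0308, and with age as a term at 0.40 with an adjusted P of 0.0488. For Hgd the folds of females against males were 1.03 (0.871 to 1.23) in PP and 0.882 (0.742 to 1.05) in LL mice. For Fah they were 0.900 (0.764 to 1.06) in PP and 1.11 (0.944 to 1.31) in LL mice. Tat had the widest intervals, 1.41 (0.922 to 2.17) in PP and 0.733 (0.479 to 1.12) in LL mice.

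**Figure D3:**
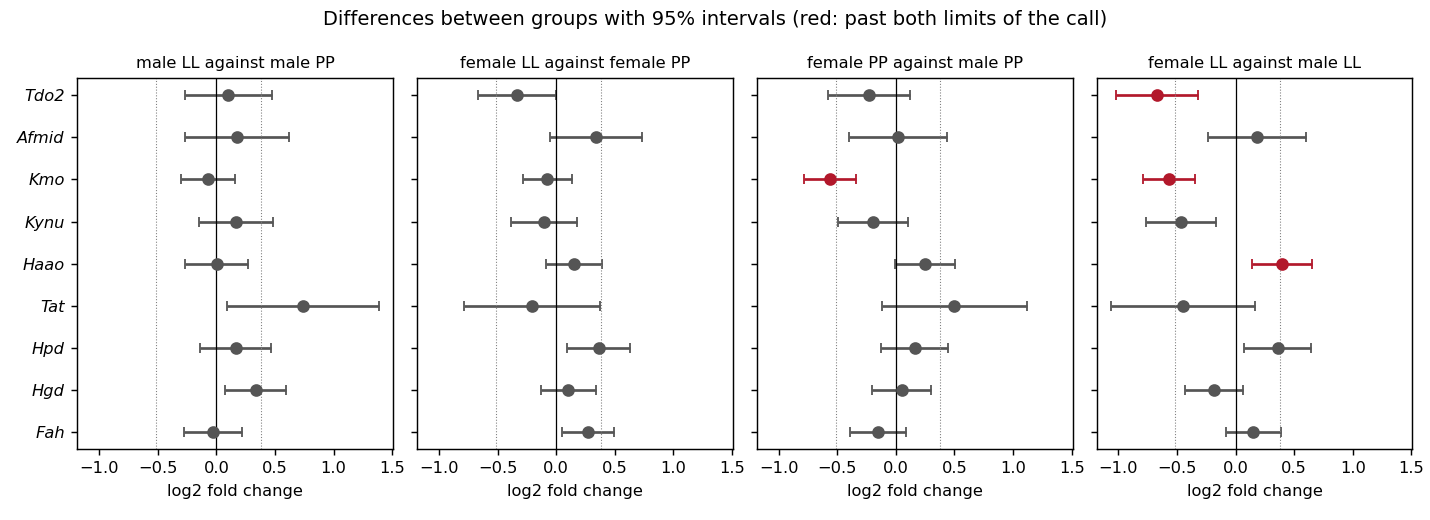
Log2 fold changes of the 9 enzymes (y axis) in 4 contrasts, with 95% intervals as bars. Dotted lines mark folds of 0.7 and 1.3, and red marks enzymes past both limits of the call. Kmo lies at -0.56 and -0.57 in the sex contrasts, and no enzyme is red in the genotype contrasts on the left.

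Over the 9 enzymes the median log2 fold change of females against males was 0.02 in PP and -0.18 in LL mice, where the medians of all genes were -0.0016 and 0.013. The sign was the same in both genotypes for 6 of 9 enzymes and for 67% of all genes. At an unadjusted p below 0.05 there were 1 of 9 in PP mice, against 17.5% of all genes, and 5 of 9 in LL mice, against 20%.

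Other cell types were read from marker lists beside these sex differences. The summed normalized counts of 6 endothelial markers were 144 to 275 in male PP and 200.5 to 277 in male LL mice, against 282 to 592 in female PP and 213 to 426 in female LL mice. In PP mice 3 of the 6 (Oit3, Kdr and Clec4g) were called higher in females, with log2 fold changes of 1.32, 1.17 and 1.17. Of 5 tested stellate and fibroblast markers, 4 (Dcn, Col3a1, Lrat and Reln) were called higher in female PP mice, and the summed list of 6 was 288 to 587 in male PP and 681 to 934 in female PP mice. In LL mice neither list had a call, with sums of 509 to 825 in males and 416 to 904 in females for the stellate list. Of 8 Kupffer and macrophage markers only Vsig4 was called, higher in female LL mice (0.85), with sums of 453 to 760 in male LL, 531 to 869 in female LL, 478 to 1232 in male PP and 902 to 1104 in female PP mice. Among the 6 hepatocyte markers Alb was higher in female PP mice (0.94) and Serpina1e, a male-biased serpin, was lower in females of both genotypes (-3.88 and -5.76). The hepatocyte sums were 405863 to 540094.8 in male PP and 489155 to 576496 in male LL mice, against 693771 to 791619.8 in female PP and 582968 to 706978 in female LL mice. Most of each sum came from Alb, with means of 348169, 450430, 666570 and 566181 in these 4 groups. Of the 6 hepatocyte markers 4 were above 0 in females against males in PP mice, with a median log2 fold change of 0.17. In LL mice 2 of the 6 were above 0, with a median of -0.24. Of the 5 cholangiocyte markers 1 was tested (Spp1) and of 7 lymphocyte and blood markers 3 (Ptprc, Hbb-bs and Hba-a1), with no call between the sexes. Genes of the Mup family, male-biased urinary proteins, took 11.8 to 30.05% of counts in males and 2.00 to 6.93% in females. The part of these differences in the results for Kmo, Tdo2 and Haao was not tested, and in whole liver fewer cells of a type and less RNA per cell cannot be told apart.

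By genotype, none of the 9 enzymes was called in males, where 0.283% of all genes were called (31 of 10938, of which 3301 were given an adjusted P after DESeq2's filter on low means). Tat and Hgd of the tyrosine route were higher with the LL form at an unadjusted p below 0.05 (7.81% of all genes), and neither passed the adjusted test. No member was called under any of the 32 alternatives, edgeR included.

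Hgd (ENSMUSG00000022821, chromosome 16, 37400515 to 37452388) had normalized counts of 2414, 2382, 2669 and 2612 in male PP and 3189.5, 2684, 2893 and 3930.1 in male LL mice. Every LL value was above every PP value, although by little for male LL 2, and such separation was seen for 4.07% of all genes. The log2 fold change was 0.33 ± 0.13, a fold of 1.26 (1.05 to 1.51), with an unadjusted p of 0.0128 and a DESeq2 adjusted P of 0.283. In females the counts were 2311, 2771, 2346, 3145 and 2465 in PP and 2414, 2676, 3013, 2684 and 3207 in LL mice, with a log2 fold change of 0.10 ± 0.12. The male estimate was 0.040 to 0.41 over 32 alternatives, with the same sign in all 32. Hgd-203, the leading transcript, held 27.7 to 99.9% of Hgd counts in a library. Its TPM was lowest in male LL 4, at 78.7, the mouse with the highest gene count.

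Tat (ENSMUSG00000001670, chromosome 8, 110717063 to 110726435) had normalized counts of 3275, 2904, 2594 and 3532 in male PP and 4129, 2844, 4355 and 9178 in male LL mice. Male LL 4 stood far above the other 3, and male LL 2 fell within the PP range. LL mice were higher by 0.74 ± 0.33 on the log2 scale, a fold of 1.67 (1.06 to 2.61), with an unadjusted p of 0.0261 and an adjusted P of 0.340, and without male LL 4 it was 0.29. In females the counts were 2008, 6272, 4331, 2618 and 6503 in PP and 3044, 3369.9, 4259.9, 3725 and 4401 in LL mice, with a log2 fold change of -0.21 ± 0.30. The highest coefficients of variation of any enzyme and group were those of Tat, at 54.3% in male LL and 47.2% in female PP mice, against 13.4% in male PP and 15.3% in female LL mice. The genotype by sex interaction of Tat was -0.95 ± 0.44, with an unadjusted p of 0.0332 and an adjusted P of 0.442.

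For the other enzymes the male LL to male PP folds were nearer to 1, and none passed the test. The folds were 1.07 (95% interval 0.831 to 1.39) for Tdo2, 1.13 (0.831 to 1.53) for Afmid, 0.950 (0.810 to 1.12) for Kmo, 1.12 (0.901 to 1.395) for Kynu and 1.00 (0.832 to 1.21) for Haao. They were 1.12 (0.908 to 1.38) for Hpd and 0.978 (0.824 to 1.16) for Fah. The median log2 fold change over the 9 was 0.16, with 7 above 0, and that of all genes was 7.5e-05.

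In females too, none of the 9 enzymes was called by genotype, where 0.658% of all genes were called. At an unadjusted p below 0.05 there were 3 (Tdo2, Hpd and Fah) against 13% of all genes, and no enzyme had groups without overlap, against 2.66% of all genes.

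Hpd (ENSMUSG00000029445, chromosome 5, 123309870 to 123320817) had normalized counts of 6778, 9868, 7355, 10662 and 8670.2 in female PP and 8352, 10560.1, 11196, 11835 and 13731 in female LL mice. Female LL 3, 4 and 5 were above all PP mice, and female LL 1 and 2 lay within their range. The difference was 0.36 ± 0.14 on the log2 scale, a fold of 1.28 (1.07 to 1.55), with an adjusted P of 0.168. Without female PP 4, the PP mouse with the highest value, it was 0.45 with an adjusted P of 0.0316 and was called, the 1 such case among the 9 enzymes in females. That fit called 270 of 10938 genes, against 72 with all mice. The Hpd estimate was 0.27 with a fragment length term, 0.066 with the transcript length offset and 0.021 on the log2(TPM + 1) scale. It was called in none of these. In males the fold was 1.12, as given above.

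Fah (ENSMUSG00000030630, chromosome 7, 84232788 to 84255930) had normalized counts of 2505, 2570.1, 2310.5, 2768 and 2016 in female PP and 2766, 2518, 2724, 3428 and 3271 in female LL mice. The highest PP value exceeded 3 of the 5 LL values. On the log2 scale the difference was 0.27 ± 0.11, a fold of 1.21 (1.04 to 1.41), with an adjusted P of 0.220. For Tdo2, with the counts given above, female LL mice were lower than female PP mice by a log2 fold change of -0.33 ± 0.17, with an adjusted P of 0.328, and the estimate depended on the transcripts counted. It was 0.0096 for the leading transcript alone and -0.75 with the offset from transcripts of at least 1000 bases (unadjusted p 0.00165, adjusted P 0.145). Both settings were chosen after seeing the data.

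For the remaining enzymes the female folds by genotype were 1.26 (0.963 to 1.66) for Afmid, 0.949 (0.821 to 1.10) for Kmo, 0.932 (0.766 to 1.13) for Kynu, 1.11 (0.941 to 1.31) for Haao, 0.865 (0.578 to 1.29) for Tat and 1.07 (0.913 to 1.26) for Hgd. The effect of genotype had the same sign in males and females for 5 of 9 enzymes and for 57.6% of all genes. The interaction itself was called for none of the 9, against 0.119% of all genes, with 1 (Tat) at an unadjusted p below 0.05 against 5.67%. Ages were not even across the groups, and a term for age was added to the fit after the values had been seen. For that term 2 of the 9 enzymes (Afmid and Hpd) had an unadjusted p below 0.05 in all 18 mice, against 5.32% of all genes, and 1 (Afmid) did in the 10 females alone, against 4.39%. None of the 9 passed the adjusted test for age, as 0.183% and 0.174% of all genes did. With the age term the enzymes called between the sexes in LL mice were Kmo, Tdo2 and Hpd in place of Kmo, Tdo2 and Haao.

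The marker lists were also read by genotype, where none of their genes was called. In the genotype by sex interaction 1 of the 6 hepatocyte markers was called, with a negative sign, against 0.119% of all genes. All 8 Kupffer and macrophage markers had log2 fold changes below 0 in LL mice of both sexes, with medians of -0.63 in males and -0.43 in females. Of the 6 endothelial markers 5 were above 0 in males (median 0.38) and 0 in females (-0.57). Of the 5 tested stellate and fibroblast markers 5 were above 0 in males (0.55) and 0 in females (-0.41). For the 6 hepatocyte markers 4 were above 0 in males (0.13) and 1 in females (-0.24), and for the 3 lymphocyte and blood markers 0 in males (-0.45) and 3 in females (1.085). The 1 cholangiocyte marker tested was at -0.52 in males and 0.03 in females. The part of these shifts in the genotype values of Tat, Hgd, Hpd, Fah and Tdo2 was not tested.

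The transcripts that made up each gene were compared as the share of counts on the leading transcript, for the 6 enzymes whose next transcript held at least 5% of counts. Of 24 comparisons none passed after adjustment, and 2 had an exact permutation p below 0.05, both between female LL and female PP mice. Tdo2-201, the longest Tdo2 transcript at 3431 bases, held 83.9 ± 4.30% of Tdo2 counts in female LL and 66.4 ± 4.92% in female PP mice (SD over 5 mice each), with an exact permutation p of 0.00794 (adjusted 0.190). An exact permutation p of 0.00794 is the smallest this test can give for 5 mice against 5, and the smaller groups cannot reach it. Over 24 tests a lone comparison at that value is adjusted to 0.190, so the lack of a pass after adjustment says little about the shares. Kynu-201, of 2733 bases, held 91.4 ± 6.38% in female LL and 73.7 ± 11.7% in female PP mice (exact permutation p = 0.0238, adjusted 0.286). Fragments were shorter in female LL mice, with a median of 289.6 bases against 397 in female PP mice, and the part of this in the shares was not tested. For Haao the leading transcript Haao-201 held 42.5 ± 15.4% in male LL and 61.8 ± 9.92% in female LL mice (exact permutation p = 0.0952, adjusted 0.381).

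Other genes of the tryptophan pathway were called by sex, and none by genotype. Of 17 other genes of tryptophan and NAD metabolism, 15 were tested, and Ido1 and Tph1 had no counts. Aadat, an aminotransferase that makes kynurenic acid from kynurenine, was lower in females, with log2 fold changes of -0.96 ± 0.12 in PP (adjusted P 7.4e-13) and -0.58 ± 0.12 in LL mice (adjusted P 0.000196). Its normalized counts were 565 to 843 in the 4 male PP and 328 to 363 in the 5 female PP mice, with no overlap. Ddc, the decarboxylase of aromatic amino acids, was lower in females by the same measure, at -0.99 ± 0.29 in PP (adjusted P 0.0131) and -0.91 ± 0.29 in LL mice (adjusted P 0.028). Maob, a monoamine oxidase, was higher in females, at 0.81 ± 0.13 in PP (adjusted P 1.2e-07) and 0.50 ± 0.13 in LL mice (adjusted P 0.00506). So 3 of 15 were called in each genotype, 1 higher and 2 lower, against 6.45% of all genes in PP and 6.12% in LL mice. None of the 15 was called by genotype, against 0.283% of all genes in males and 0.658% in females, or in the interaction, against 0.119%.

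Of 11 other genes of phenylalanine and tyrosine metabolism, 9 were tested, among them Gstz1, which acts between Hgd and Fah. None of the 9 was called in any of the 5 contrasts, where at most 6.45% of all genes were called. Their median log2 fold change by genotype was 0.13 in males and 0.21 in females.

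**Figure D4:**
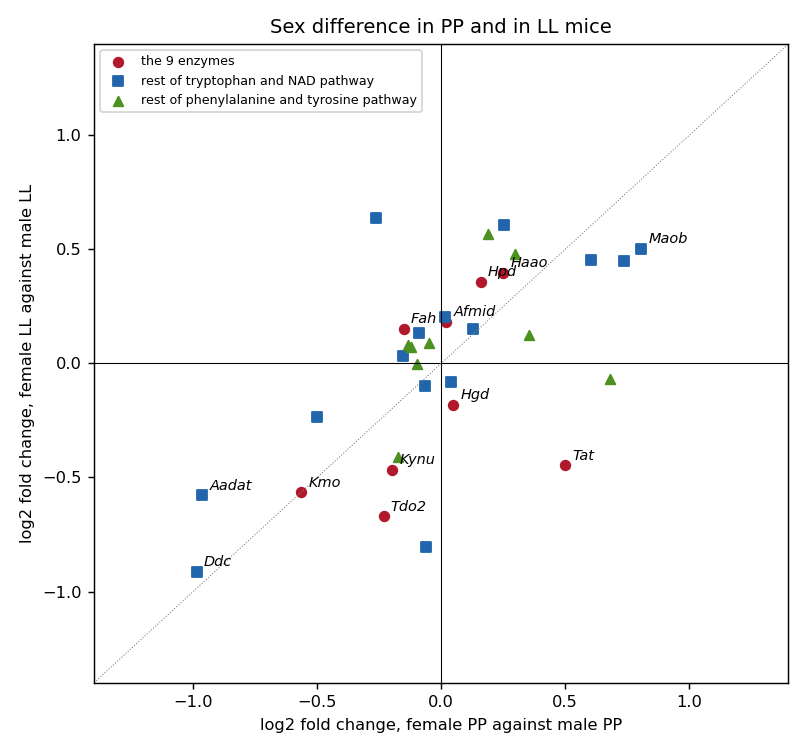
Log2 fold change of females against males in PP mice (x axis) and in LL mice (y axis) for the 9 enzymes (circles), the other genes of tryptophan and NAD metabolism (squares) and the other genes of phenylalanine and tyrosine metabolism (triangles). The dotted line marks equal values. All 9 enzymes and the other genes called in either contrast are named, and Kmo, Aadat and Ddc lie at the lower left, at -0.56, -0.96 and -0.99 in PP mice.

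Related lists were counted in the same fit. Among 4 tested transporters of aromatic amino acids, Slc3a2 was called higher in female LL than in male LL mice (0.52 ± 0.16). None of 8 regulators, including the glucocorticoid receptor gene Nr3c1, Hnf4a and Cebpa, was called in any contrast. Of 11 tested glucocorticoid-induced genes only Sgk1, a kinase, was called, higher in female PP mice (1.16 ± 0.32). Of 5 tested genes of the aryl hydrocarbon receptor, for which kynurenine is a ligand, Nqo1 was called higher in females of both genotypes (0.77 ± 0.26 in PP and 0.78 ± 0.25 in LL mice), and Cyp1a1 was not tested, at no more than 4 estimated counts. Of 30 tested enzymes that degrade other amino acids, Uroc1 (0.45) was called in PP and Oat (0.61) and Prodh2 (1.05) in LL mice, all higher in females. Of all genes, 6.45% were called by sex in PP mice and 6.12% in LL mice. None of the genes of these 5 lists was called by genotype, against 0.283% of all genes in males and 0.658% in females. None was called in the interaction, against 0.119%.

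For each enzyme the gene with the most similar pattern over the 18 livers was sought among 10937 others, as the smallest root mean square difference of log2(normalized count + 1) after centring. It was Oxr1 for Tdo2 (0.171), Nt5c2 for Afmid (0.222), Mapk1ip1l for Kmo (0.125), Rpf1 for Kynu (0.157) and Asgr1 for Haao (0.115). It was Slc7a2 for Tat (0.352), Mthfd1 for Hpd (0.146), Rragc for Hgd (0.130) and Csnk2b for Fah (0.111). None was another of the 9. The nearest other enzyme ranked between 4th, for Afmid with Hpd, and 601st, for Hgd with Hpd, and Kmo and Tdo2 were each other's nearest (0.235).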

How the data were processed

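Liver RNA from 18 mice was sequenced by the authors, and transcripts were quantified with Salmon 1.4.0 (per the labels) against GENCODE M26 transcripts of GRCm39. Sequencing layout and strandedness are not given in the sources used here. The deposited tables give, per transcript, estimated counts, which are not scaled between libraries, and TPM, which the authors' software scaled to the same total in each library and which depends on transcript length. Groups followed the sex and genotype of the labels, which do not say whether mice shared a litter.

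Here, transcripts were joined to genes through GENCODE M39, which held 137570 of 139225 transcripts and at least 99.76% of the counts of a library. Estimated counts were summed per gene and rounded, and the 10938 genes that reached 10 counts in 4 or more libraries entered DESeq2 1.42.0 under R 4.3.3, the tool of the study's methods (Wald test, 4 groups in 1 fit, Benjamini-Hochberg adjustment). A call needed an adjusted P below 0.05 and a fold of at least 1.3 or at most 0.7, without the fold limit for the interaction. P-values were adjusted over the genes that DESeq2's independent filtering kept, which were 3301 of the 10938 for genotype in males, 8598 in females, 10930 for either sex contrast and 1606 for the interaction. The other genes had no adjusted P and could not be called, whereas shares of all genes are of 10938. All 9 enzymes had an adjusted P in each contrast. Alternatives used edgeR 4.0.16, limma 3.58.1 on log2(TPM + 1), TMM factors, no filter, a transcript length offset, terms for fragment length, age or replicate number, and fits without each mouse. The fits were tested on simulated data. No 2 libraries of a group were alike within counting noise, so none was treated as a repeat.

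All 9 enzymes are named. Of other lists, the genes called by sex or by genotype are named, or the 4 of smallest adjusted P where over 4 were called. Some genes and motifs of these lists are not reported here. The enzymes and the lists were chosen with earlier results of these data known. Transcript shares were compared with two-sided exact permutation tests. Errors are SE for log2 fold changes and SD otherwise, and the 95% intervals are those of the DESeq2 fit.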

Additional observations from a re-analysis of the deposited data

How the results depend on the processing

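No alternative gave a call among the 9 enzymes by genotype in males or in the interaction. In females by genotype, leaving out 1 mouse gave 0 to 1 enzymes (Hpd, without female PP 4). Between the sexes in PP mice the 1 call (Kmo) became 0 with the transcript length offset, 0 with limma on TPM divided by size factors (chosen after seeing the data) and 5 with limma on log2(TPM + 1), which were Afmid, Kynu, Haao, Hpd and Fah. Of all 10938 genes these settings called 728, 340 and 4307, and 4223 of the 4307 were higher in females. On that last scale Kmo was 0.67, Kynu 0.64, Fah 0.60 and Tdo2 0.21, each opposite in sign to the main estimate. In LL mice the 3 calls became 1 with the length offset (Kynu), 1 with a fragment length term (Kmo), 1 without female PP 3 and male LL 2, the libraries of the longest and shortest fragments (Tdo2, chosen after seeing the data), 0 with limma on log2(TPM + 1), 0 with limma on TPM divided by size factors, and 1 to 4 when 1 mouse was left out. With age as a term they stayed 3 in number, with Hpd called and Haao not. There Haao was -0.0587 with the length offset and -0.0305 with TPM divided by size factors, and Kmo was 0.0643 on log2(TPM + 1). The cause of these changes was not tested. The offset from longer transcripts, given in the report for Kmo, was chosen after seeing the data and left out short transcripts of all genes. Calls over all genes ranged from 0 to 60 by genotype in males (31 as reported), 0 to 270 in females (72), 340 to 4307 by sex in PP mice (705), 176 to 807 in LL mice (669) and 0 to 27 in the interaction (13). By edgeR they were 3, 3, 573, 468 and 0, with 956, 1490, 2010, 2329 and 676 genes at an unadjusted p below 0.05.

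Replicate numbers gave no strong pairing of the mice: libraries of the same number correlated at -0.17 to 0.16 in their deviations from group means. Between female LL and female PP mice the median was 0.088 for the same number and -0.042 for other pairs. The numbers run in order of age within each group, so a block by replicate number is not separate from age. With replicate number as a block, the enzymes called by sex were Kmo in PP mice (1) and Kmo and Tdo2 in LL mice (2), and 0 were called by genotype. At these depths and group sizes the widest intervals were those of Tat, and the narrowest those of Kmo.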

Other observations

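The ages on the labels were set beside the enzymes after their values had been seen, and they differ from the single age in the series text. Hpd in female LL mice was 8352 and 10560.1 normalized counts at 11 weeks, 11196 and 11835 at 13 weeks and 13731 at 14 weeks. In female PP mice it was 6778 and 9868 at 9 weeks, 7355 at 11, 10662 at 12 and 8670.2 at 14 weeks. Male PP mice had 7021 at 9 weeks, 7277 at 12 and 8307 and 8438 at 14 weeks, and male LL mice had 8950.4, 9089.9 and 8332 at 13 weeks and 8382 at 14 weeks, so that a steady order with age was not seen in every group. Afmid in female LL mice was 289.5 and 407 at 11 weeks, 599 and 626 at 13 weeks and 640.1 at 14 weeks. In female PP mice Afmid was 288 and 410.0 at 9 weeks, 441 at 11, 417 at 12 and 469 at 14 weeks. Male PP mice had 373 at 9 weeks, 329 at 12 and 490 and 405 at 14 weeks. Male LL mice had 561, 456 and 401 at 13 weeks and 388 at 14 weeks, so the males showed no steady rise. With age as a term beside the 4 groups in all 18 mice, the log2 change per week was 0.11 ± 0.04 for Afmid and 0.06 ± 0.03 for Hpd, with unadjusted p of 0.0123 and 0.0458. The DESeq2 adjusted P was 0.753 for Afmid and 0.932 for Hpd. In the 10 females alone Afmid changed by 0.15 ± 0.06 per week (adjusted P 0.344, unadjusted p 0.00533), and in the 8 males by 0.05 ± 0.07. By edgeR 0 of the 9 passed, with unadjusted p of 0.0201 for Afmid and 0.0739 for Hpd, and in the 10 females alone Hpd had an unadjusted p of 0.140 by DESeq2.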
